A study of Mus musculus with 30 samples.

Results

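Uteri of 21-day-old wild-type (WT) female mice collected 24 h after estradiol (E2) were compared with uteri of WT mice of the same age collected 24 h after the first of 3 injections of insulin-like growth factor 1 (IGF1). The comparison takes the 6 arrays whose titles give WT uterus with E2 or IGF1 at 24 h, 3 for each hormone, of 30 arrays in the series. E2 mice had received 250 ng of E2 in 100 ul of saline in a single injection, and IGF1 mice 50 ug of IGF1 in PBS at 0, 8 and 16 h, all into the peritoneum. The hormone can therefore not be told apart from the number of injections, the time since the last one (24 h after E2 and 8 h after IGF1) or the solvent. WT uteri injected with 100 ul of saline and collected at 24 h served as vehicle arrays. The same hormones in the estrogen receptor alpha knockout line named Ex3aERKO (KO) at 24 h, and in WT 2 h after 1 injection of either, were used only to ask where the 24 h difference in WT departed from them. Each of these groups had 3 arrays, and nothing in the labels says whether replicates came from separate animals. The p-values therefore measure the spread between arrays within groups, estimated over all 30 arrays of the series. RNA of the whole uterus was hybridised to Affymetrix whole-transcript arrays, whose precision is limited by the number of arrays.

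E2 acts through estrogen receptor alpha, a ligand-bound transcription factor, and drives the immature rodent uterus first to take up water and then to divide its epithelial cells and secrete. IGF1 is made in the uterine stroma under E2 and binds the receptor tyrosine kinase IGF1R, which signals through PI3K and MAPK to growth, translation and the cell cycle. The comparison asks which parts of the estrogen response at 24 h stood above or below what the growth factor alone gave.

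Values are the deposited log2 values, 1 probe set per gene, and differences are E2 minus IGF1, so that a positive one means higher with E2. Over 30142 genes limma called 2287 higher and 750 lower at an adjusted p under 0.05, which is 7.59% and 2.49% of the genes tested. Of these, 919 were at least 2-fold higher and 144 at least 2-fold lower. The calls leaned to the higher side (75.3% of them), and that share was 91.1% with arrays centred on their medians and 65.1% after quantile normalization. The median difference of all genes was -0.012 as deposited and 0.121 with arrays centred, a shift that applies to every WT difference at 24 h given here. Centring moved the median from 0.13 to -0.08 in KO at 24 h. For the WT difference minus that in KO it moved from -0.15 to 0.19.

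**Figure D1:**
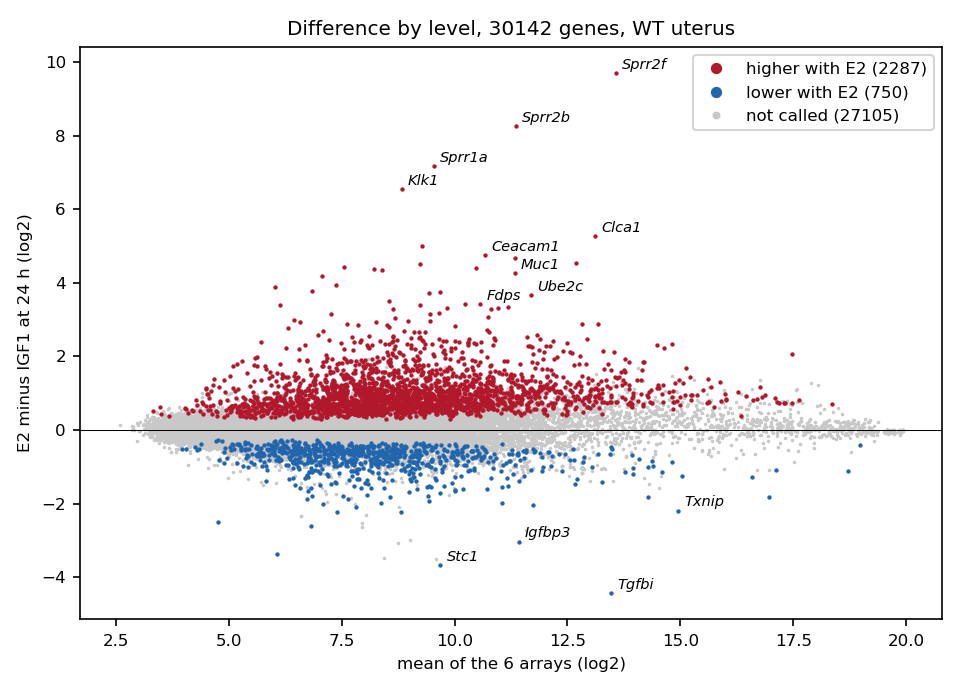
Each point is 1 of 30142 genes, with the mean log2 value of the 6 WT arrays at 24 h on the x axis and E2 minus IGF1 (log2) on the y axis; 2287 genes called higher with E2 are red, 750 called lower are blue and the rest are grey. The rises reach 9.70 (Sprr2f) and the falls -4.43 (Tgfbi).

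The 6 compared arrays correlated with their own group at a mean r of 0.991 to 0.994. IGF1 replicate 2 lay below the other IGF1 arrays for genes of growth metabolism: the mean of 27 ribosome biogenesis genes was 9.53, 9.12 and 9.63 on the IGF1 arrays, and that of 17 cholesterol synthesis genes 8.63, 7.86 and 8.31. Without that array 1312 genes were called higher (4.35%) and 271 lower (0.899%). Without E2 replicate 2 the counts were 1493 and 387, and without E2 replicate 3 they were 1651 and 295. Counts that rest on it are given with and without it. WT vehicle replicate 1 stood apart from every other array, with Xist at 10.16 against 17.01 to 18.12 elsewhere, so differences from vehicle are also given without it.

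The uterine identity of the tissue was borne out by its markers, since all 10 tested lay above the array floor, with list means of 10.21 to 10.39 with E2 and 10.22 to 10.54 with IGF1. The floor is the 95th percentile of 1083 olfactory receptor genes on each array, 5.66 to 6.55. Of 13 epithelial markers, 8 were called higher with E2 and none lower, with a median difference of 1.70. Their mean level was 10.76 to 10.82 on the E2 arrays, 9.27 to 9.38 on the IGF1 arrays and 8.68 to 8.99 on the vehicle arrays. The groups did not overlap. Krt8, a keratin of simple epithelia, rose by 2.88 ± 0.39 (SE), Krt7 by 2.52 ± 0.28, Epcam by 1.79 ± 0.21 and Esrp1, an epithelial splicing regulator, by 1.70 ± 0.21. Foxa2, the gland transcription factor, was at 6.03 with E2 and 6.02 with IGF1. In whole tissue, more epithelial cells and more RNA per epithelial cell cannot be told apart, and this holds for every epithelial gene below.

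Markers of other cell types were called in few members. Of 11 stromal markers 1 was called higher and 1 lower (median -0.03). Their list means overlapped, at 12.31 to 12.46 with E2 and 12.17 to 12.51 with IGF1. The summed level, which the most abundant members dominate, was 18.38 to 18.45 with E2 and 18.65 to 19.02 with IGF1. Among 12 smooth muscle and 10 endothelial markers, 1 of each was lower and none higher. None of 10 macrophage markers was called, and their means were 7.44 to 7.72 with E2 and 7.55 to 8.05 with IGF1. Of 6 eosinophil markers 5 were at the floor in both groups. Of 10 neutrophil markers 2 were called higher, one of which, lactoferrin (Ltf), is also a product of uterine epithelium, while Csf3r, Mmp8 and Ngp were at the floor in both. The median of this list was -0.24, with 3 of 10 differences positive, and S100a8 (-2.62) and S100a9 (-2.53) lay lower with E2 without passing the test. Of 8 mast cell markers 7 had a negative difference (median -0.63), with list means of 6.35 to 6.57 with E2 and 6.81 to 7.33 with IGF1 that did not overlap. The only mast cell marker called was Fcer1a (-0.53), which was at the floor in both groups. All 5 mesothelial markers had a negative difference (median -0.79) and none was called. What part these cell types had in the results was not tested.

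The largest rises were in genes of the small proline-rich family, whose products are cross-linked at the surface of epithelia. Sprr2f had 17.56, 18.82 and 18.89 with E2, against 9.47, 8.61 and 8.10 with IGF1, a difference of 9.70 ± 1.55 (adjusted p = 0.000138). Sprr2b had 14.28, 16.82 and 15.33 with E2, against 7.47, 6.99 and 7.23 with IGF1 (8.25 ± 1.24). Sprr1a had 12.61, 13.61 and 13.16 with E2, against 6.16, 6.87 and 4.84 with IGF1 (7.17 ± 1.12). Its value on IGF1 replicate 3 lay under the floor of that array (5.82), so the size is not exact. In all 3 genes the hormones were far apart, and vehicle arrays, at 6.70 to 9.14 for Sprr2f, overlapped those of IGF1. Sprr2g, at the floor on all 3 IGF1 arrays, was at least 4.30-fold higher.

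Of 19 genes 8 were called higher and none lower, in the cornified envelope list, with a median of 0.22, and all 8 were Sprr genes. Of these 8, 5 were at the floor with IGF1, 2 of them in both groups, and the list median was -0.11 with values under the floor set to it. Transglutaminase 1 (Tgm1, 0.08), an enzyme that cross-links skin's envelope, did not pass the test. Nor did the envelope components involucrin (Ivl, 0.00), loricrin (Lor, 0.05) and filaggrin (Flg, -0.02). Only 9 of the 19 genes were above the floor with either hormone, 6 of them called Sprr genes. Differences near 0 among the uncalled genes may therefore compare values at background. Sprr2d was uneven, with 6.11, 12.09 and 9.24 with E2, against 4.97, 4.95 and 4.97 with IGF1, where the IGF1 arrays are all under the floor, which makes it at least 9.79-fold higher. Its call (adjusted p = 0.0322) was lost without any of 5 of the 6 arrays, at the lowest 2.71 (adjusted p = 0.252) without E2 replicate 2. Genes of this family are near-identical in part, and a probe set may read more than 1 of them. Markers of stratified epithelium, 9 tested and none called, varied between replicates, with means of 5.83, 8.74 and 8.17 on the E2 arrays and 6.92, 8.09 and 5.59 on the IGF1 arrays, and Krt1 at the floor in both. Sprr2f was at 17.56 on the E2 array with the lowest of these means (5.83) and at 8.61 on the IGF1 array with the highest (8.09), and the part of stratified epithelium in the Sprr differences was not tested.

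**Figure D2:**
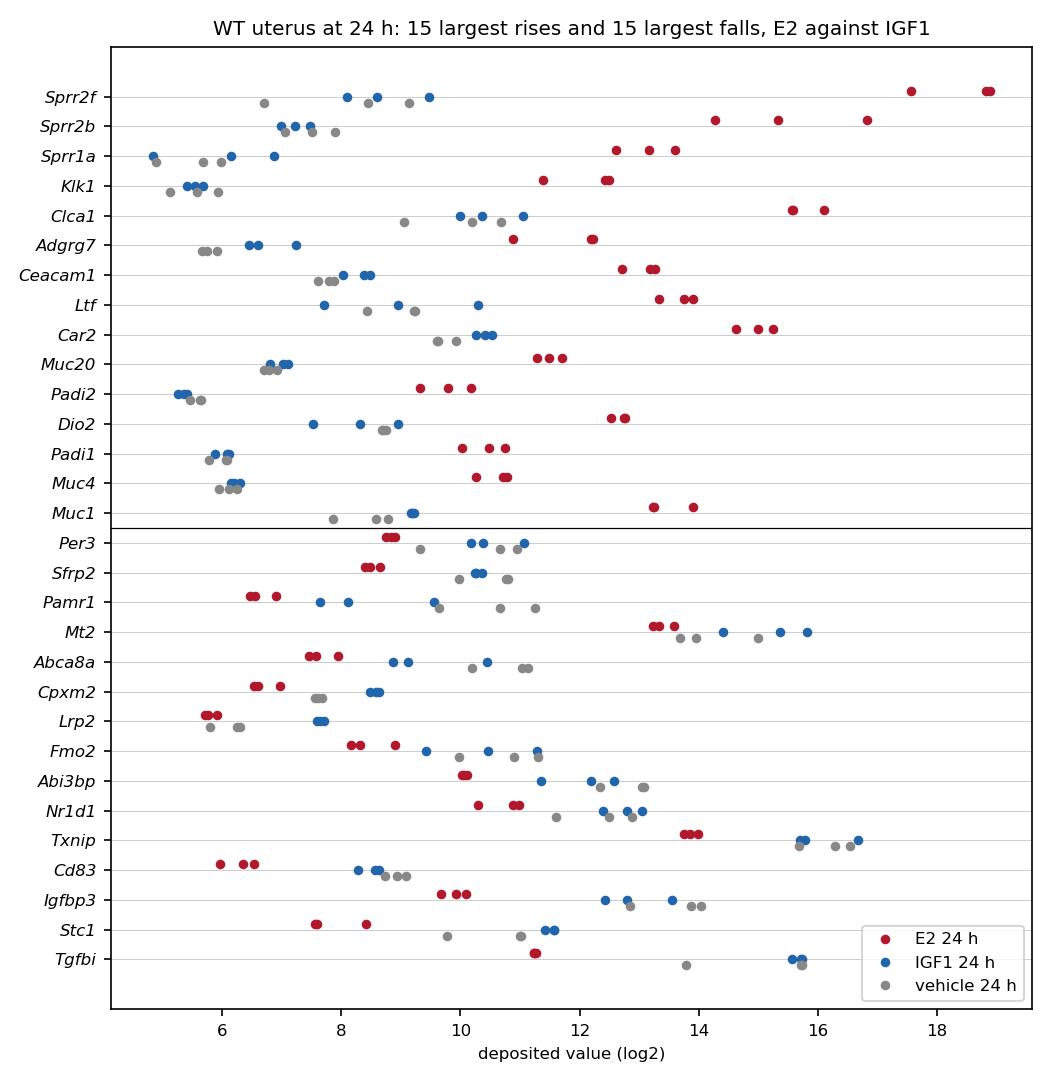
Deposited log2 values of the 15 genes with the largest rises and the 15 with the largest falls, 1 point per WT array at 24 h (3 with E2 in red, 3 with IGF1 in blue, 3 with vehicle in grey). No E2 point overlaps an IGF1 point in any of these genes, a property the choice of genes used.

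The other large rises included genes of mucus, mucins and enzymes. Clca1, a secreted protease of mucus, averaged 15.75 ± 0.30 with E2 and 10.47 ± 0.53 with IGF1 (SD, n = 3 each), with no IGF1 array above 11.05 (5.28 ± 0.68, adjusted p = 1e-05). The transmembrane mucin Muc1 had 13.91, 13.25 and 13.23 with E2, against 9.19, 9.23 and 9.17 with IGF1 (4.27 ± 0.42). Muc4 rose by 4.36 ± 0.48 and Muc20 by 4.52 ± 0.36. Padi2, which converts arginine to citrulline in proteins, had 9.33, 9.80 and 10.18 with E2 and lay at the floor on all 3 IGF1 arrays, which makes it at least 15.1-fold higher, with the fold taken against the floor. Its neighbour in function Padi1 rose by 4.38 ± 0.36. In the list of secreted and surface products as a whole, 12 of 27 were higher and 1, the calcium-binding protein Calb1 (-1.60), was lower, with a median of 0.48.

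Ltf, an iron-binding protein long used as a marker of estrogen action in the mouse uterus, had 13.33, 13.90 and 13.76 with E2, against 8.96, 10.30 and 7.72 with IGF1. The E2 arrays lay above all IGF1 arrays, and the difference was 4.67 ± 1.4 (adjusted p = 0.0326). The call was lost without any one of E2 replicates 1 to 3 or IGF1 replicates 1 and 3 (adjusted p = 0.0643, 0.101, 0.0925, 0.0747 and 0.13) and after quantile normalization (0.0596). The values spread over the 3 IGF1 arrays, where the smallest was 7.72 and the highest 10.30. With only the compared groups fitted the adjusted p for Ltf was 0.00387, and with array weights it was 0.00479. What made the call uneven between settings was not tested.

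Ceacam1, a cell adhesion molecule of epithelia, had 12.72, 13.18 and 13.27 with E2, against 8.48, 8.38 and 8.03 with IGF1 (4.76 ± 0.32). Carbonic anhydrase 2 (Car2) had 14.63, 14.99 and 15.25 with E2, against 10.53, 10.27 and 10.42 with IGF1 (4.55 ± 0.35). Dio2, which makes active thyroid hormone from thyroxine, had 12.75, 12.53 and 12.76 with E2, against 8.32, 7.53 and 8.95 with IGF1 (4.41 ± 0.43). In these 3 genes the vehicle arrays lay within 1 log2 unit of the nearest IGF1 array. The adhesion receptor gene Adgrg7 rose by 5.0 ± 0.56.

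Ion transport and junction genes of epithelium showed fewer but clear differences. The chloride channel Cftr had 9.07, 9.31 and 9.50 with E2, against 6.48, 6.09 and 6.74 with IGF1 (2.85 ± 0.15). The calcium channel Trpv6 had 10.52, 10.11 and 10.31 with E2, against 6.71, 6.86 and 6.81 with IGF1 (3.52 ± 0.25). The calcium-activated chloride channel Ano1 went the other way, with 8.23, 8.54 and 8.57 with E2, against 9.81, 9.83 and 9.84 with IGF1 (-1.38 ± 0.20). Of 22 channel genes 4 were higher and 3 lower, with a median of 0.06. Of 25 claudin and junction genes 11 were higher and none lower (median 0.72). Among them the tight junction protein Cldn7 rose by 2.49 ± 0.28, the gap junction protein Gjb2 by 2.66 ± 0.36, the desmosomal cadherin Dsc2 by 1.77 ± 0.23 and E-cadherin (Cdh1) by 1.77 ± 0.29.

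Of 24 transcription factors and products of glands and lumen, 4 were higher and 2 lower, with a median of -0.01. Without E2 replicate 3 or IGF1 replicate 2 the number higher was 2. The epithelial Ets factor Elf3 had 10.83, 11.51 and 11.56 with E2, against 7.70, 7.50 and 7.53 with IGF1 (3.72 ± 0.38). Klf4, a zinc-finger factor of differentiating epithelium, rose by 1.89 ± 0.24.

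Tissue kallikreins, secreted serine proteases encoded in a tandem cluster, were measured above background with E2 in most members and in none of those called with IGF1. Klk1 had 12.49, 12.42 and 11.39 with E2, against 5.69, 5.55 and 5.41 with IGF1, which is at least 75.9-fold higher. The adjusted p was 1.67e-11. Klk1b5 had 9.23, 8.84 and 8.10 with E2, against 5.09, 4.90 and 4.86 with IGF1, at least 7.31-fold higher. Of 11 members 10 were called higher and none lower, with a median of 1.47, and Klk1b16 alone did not pass (0.45). All 10 were at the floor on the 3 IGF1 arrays, and 2 of them in both groups, so their fitted differences are not exact. With values under the floor set to it the list median was 0.29. These paralogs are close in sequence, so their probe sets may share signal.

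Genes of mitosis separated the hormones as a block, although both treatments lay above vehicle. All 28 mitosis and spindle genes tested were called higher with E2 and none lower, with a median of 1.90, where 7.59% of all genes were called higher. Their mean level was 9.37, 10.05 and 9.74 with E2, against 7.71, 7.80 and 7.82 with IGF1 and 6.73, 6.51 and 6.43 with vehicle. The 3 groups did not overlap. Ube2c, the ubiquitin-conjugating enzyme of the anaphase-promoting complex, had 12.80, 14.29 and 13.44 with E2, against 10.08, 10.01 and 9.48 with IGF1 (3.66 ± 0.53). Cyclin B2 (Ccnb2), which activates Cdk1 at entry into mitosis, had 11.14, 11.59 and 11.75 with E2, against 8.27, 7.99 and 8.25 with IGF1 (3.32 ± 0.44). The kinetochore motor Cenpe had 9.59, 10.26 and 10.01 with E2, against 7.18, 7.87 and 7.46 with IGF1 (2.45 ± 0.32). The count was 25 to 28 with each of the 6 arrays left out, with arrays centred, after quantile normalization and with array weights.

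The 250 bases before the starts of these 3 genes are shown because genes of mitosis are known to share a CCAAT box, bound by NF-Y, and a CHR element (TTTGAA). They are RefSeq sequences of GRCm38.p6, 5′ to 3′ on the gene's strand, with CCAAT and TTTGAA on either strand in capitals. Ube2c lies at chr2:164769679-164769928 on the plus strand, Ccnb2 at chr9:70421555-70421804 on the minus strand and Cenpe at chr3:135212313-135212562 on the plus strand, all upstream of the annotated start.
Ube2c: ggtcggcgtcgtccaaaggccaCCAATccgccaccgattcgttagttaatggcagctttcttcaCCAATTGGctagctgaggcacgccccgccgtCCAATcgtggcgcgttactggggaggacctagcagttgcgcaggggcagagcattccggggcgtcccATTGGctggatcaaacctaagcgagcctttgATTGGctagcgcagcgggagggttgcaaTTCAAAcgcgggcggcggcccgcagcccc
Ccnb2: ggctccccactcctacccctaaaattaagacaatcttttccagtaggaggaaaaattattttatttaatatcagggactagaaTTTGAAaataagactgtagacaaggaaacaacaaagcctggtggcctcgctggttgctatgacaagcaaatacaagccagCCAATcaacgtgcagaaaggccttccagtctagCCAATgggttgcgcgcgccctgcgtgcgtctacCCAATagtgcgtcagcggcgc
Cenpe: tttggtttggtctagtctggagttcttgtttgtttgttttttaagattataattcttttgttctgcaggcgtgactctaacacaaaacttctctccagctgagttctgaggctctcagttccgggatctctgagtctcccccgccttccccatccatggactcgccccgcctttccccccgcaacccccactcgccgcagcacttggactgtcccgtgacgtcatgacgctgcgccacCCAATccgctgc

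CCAAT was found 6 times before Ube2c, with a pair of matches on opposite strands overlapping, 3 times before Ccnb2 and 1 time before Cenpe. TTTGAA was found 1 time in each of Ube2c and Ccnb2 and not in Cenpe. Of 23 mitosis genes with a listed promoter, 18 (78.3%) held CCAAT, against 34.5% of 27025 promoters of the same length, and 7 (30.4%) held TTTGAA, against 16.3%. All 7 held both, which 5.73% of the 27025 did. A match is a description of letters and not of binding.

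DNA replication followed, with 25 of 28 genes higher and none lower (median 1.18). Their mean level was 9.04, 9.08 and 9.07 with E2, against 8.00, 7.51 and 8.11 with IGF1 and 7.09 to 7.29 with vehicle. The helicase subunit Mcm3 had 10.65, 10.68 and 10.70 with E2, against 8.50, 7.56 and 8.93 with IGF1 (2.34 ± 0.22). Rrm1, the large subunit of ribonucleotide reductase, rose by 2.28 ± 0.27 and the E2F-family repressor E2f8 by 1.91 ± 0.21. Without IGF1 replicate 2 the count was 22 of 28. The G1 regulators differed less, with 3 of 17 higher and 1 lower (median 0.08). The pocket protein Rbl1 rose by 0.80 ± 0.15 and cyclin E1 (Ccne1), at the floor with IGF1, was at least 1.38-fold higher.

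**Figure D3:**
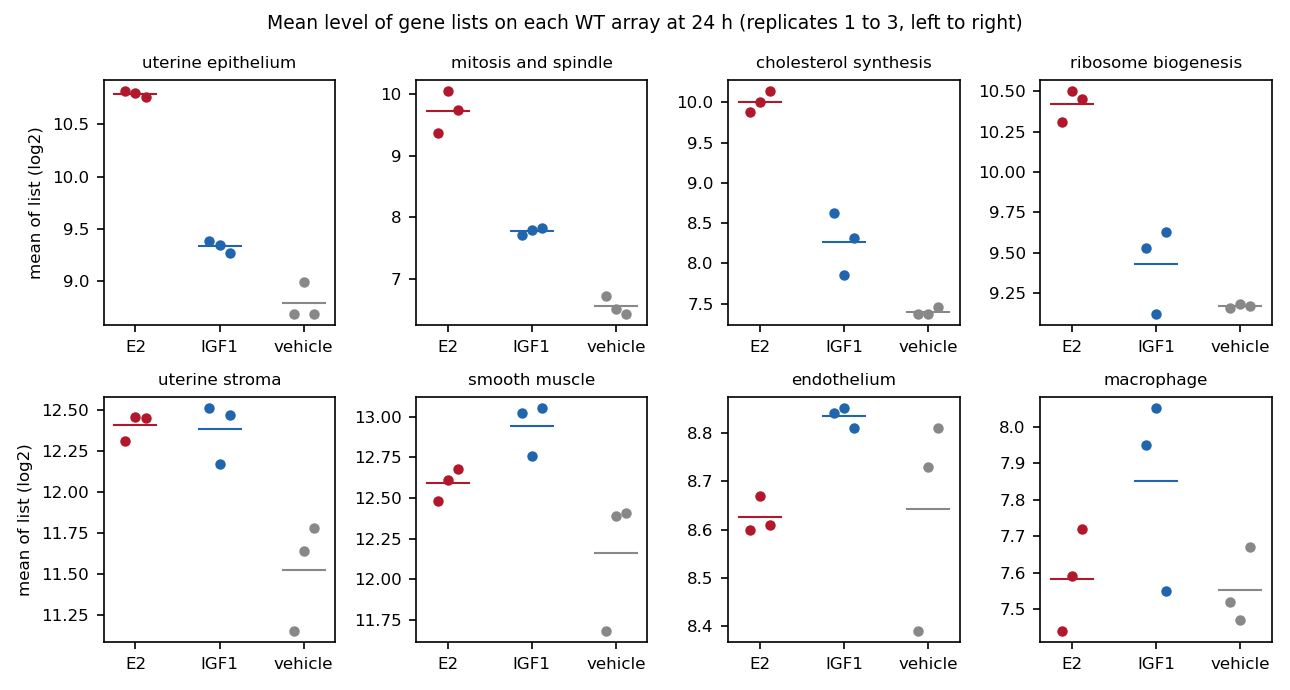
Mean log2 value of each of 8 gene lists on each WT array at 24 h, with replicates 1 to 3 from left to right and the group mean as a line, for E2 (red), IGF1 (blue) and vehicle (grey); the y axes do not start at 0. Epithelial markers and genes of mitosis, cholesterol synthesis and ribosome biogenesis lie highest with E2, and IGF1 replicate 2 (the middle blue point) is the lowest IGF1 array for cholesterol synthesis and ribosome biogenesis.

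Every enzyme gene tested in the cholesterol list was higher with E2, 17 of 17, with a median of 1.52. The list mean was 9.88, 10.01 and 10.14 with E2, against 8.63, 7.86 and 8.31 with IGF1 and 7.37, 7.37 and 7.46 with vehicle. Fdps, which makes farnesyl diphosphate, had 12.10, 12.29 and 12.44 with E2, against 9.57, 7.93 and 9.07 with IGF1 (3.42 ± 0.36). Hmgcs1, at the head of the mevalonate pathway, had 13.02, 13.06 and 13.27 with E2, against 11.18, 9.71 and 10.68 with IGF1 (2.59 ± 0.44). No E2 array overlapped an IGF1 array in these genes. Without IGF1 replicate 2, 16 of 17 were called, with a median of 1.39. In fatty acid synthesis 1 of 12 was higher and none lower (median 0.79).

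The machinery of protein synthesis and breakdown was higher with E2 in most members, by smaller amounts and with more dependence on single arrays. In ribosome biogenesis 23 of 27 were higher and none lower (median 0.95), and 15 without IGF1 replicate 2. Fibrillarin (Fbl), which methylates ribosomal RNA, had 14.19, 14.54 and 14.38 with E2, against 12.94, 12.52 and 13.33 with IGF1 (1.44 ± 0.22). The nucleolar helicase Ddx21 rose by 2.16 ± 0.42. Of the aminoacyl-tRNA synthetases 14 of 18 were higher (median 1.08), among them Gars by 1.79 ± 0.36 and Lars by 1.34 ± 0.28. This count was 8 without IGF1 replicate 2 or E2 replicate 3 and 9 without E2 replicate 2.

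Of 24 proteasome subunits 18 were higher and none lower (median 0.85). Psmd2, a base subunit of the regulatory particle, averaged 12.07 ± 0.08 with E2 and 10.70 ± 0.25 with IGF1 (SD, n = 3 each; 1.37 ± 0.23). The count was 7 without IGF1 replicate 2 and 9 without E2 replicate 2 or 3. Of 20 chaperones of the endoplasmic reticulum 11 were higher (median 0.89), and 4 without IGF1 replicate 2. The disulfide isomerase Pdia6 had 12.32, 12.26 and 12.11 with E2, against 10.63, 10.31 and 11.38 with IGF1 (1.45 ± 0.26).

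With all arrays energy metabolism leaned the same way, where 7.59% of all genes were called higher. In the respiratory chain 10 of 30 were higher and none lower (median 0.56), in the citric acid cycle 6 of 15 (median 0.58) and in glycolysis and glucose uptake 7 of 18 (median 0.65). Without IGF1 replicate 2 these counts were 2, 1 and 4, without E2 replicate 2 they were 2, 2 and 5, and without E2 replicate 3 they were 2, 1 and 4. Over all genes 4.35% were called higher without IGF1 replicate 2. The respiratory chain and citric acid cycle counts without that array lay near this share. The citric acid cycle count was 4 without each of the other 3 arrays. Phosphoglycerate kinase (Pgk1) had 13.56, 13.83 and 13.48 with E2, against 11.71, 10.92 and 11.83 with IGF1 (2.13 ± 0.33). Lactate dehydrogenase A (Ldha) rose by 1.23 ± 0.23.

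**Figure D4:**
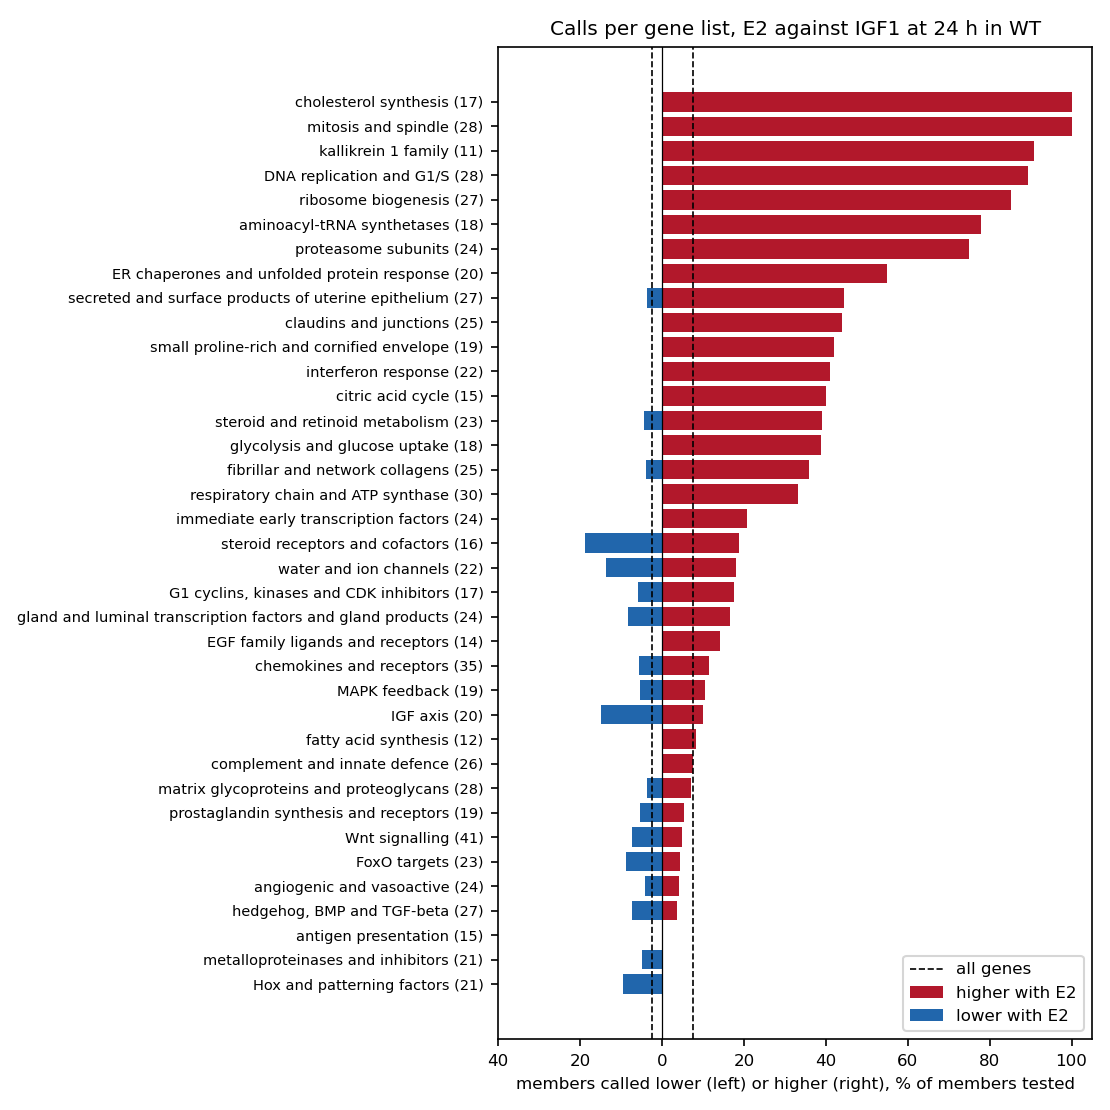
Share of tested members called higher with E2 (red, to the right) or lower (blue, to the left) in each of 37 gene lists, with the number tested in brackets; dashed lines mark the shares over all genes, 7.59% higher and 2.49% lower. Cholesterol synthesis and mitosis reach all members, while the lists at the bottom lie near or below the dashed lines.

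The IGF axis itself moved in parts. Igf1, the ligand gene, had 11.76, 11.98 and 12.36 with E2, against 10.41, 10.06 and 9.97 with IGF1 (1.88 ± 0.28, adjusted p = 6.59e-05). The E2 arrays lay above the vehicle arrays, of which the highest was 10.69, and the IGF1 arrays did not. Igfbp3, a binding protein that holds IGFs, had 10.10, 9.93 and 9.68 with E2, against 12.80, 13.55 and 12.43 with IGF1 (-3.03 ± 0.49, adjusted p = 0.00018). Vehicle arrays had 12.85, 13.87 and 14.04, so the E2 arrays alone stood apart.

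Stanniocalcins inhibit the protease Pappa, which releases IGFs from binding proteins. Stc1 had 7.56, 8.41 and 7.59 with E2, against 11.57, 11.42 and 11.58 with IGF1 (-3.67 ± 0.48). Its relative Stc2 had 7.99, 8.23 and 7.74 with E2, against 6.77, 6.75 and 6.79 with IGF1 (1.22 ± 0.27). The 2 inhibitors thus differed in opposite directions. The receptor Igf1r had 9.70, 9.97 and 9.65 with E2, against 10.46, 11.23 and 10.63 with IGF1, groups that did not overlap but did not pass the test (-1.0 ± 0.33, adjusted p = 0.059). Igfbp5 was at 13.65, 14.05 and 14.13 with E2, against 15.59, 14.79 and 15.19 with IGF1 (-1.25 ± 0.55, adjusted p = 0.179), and at 10.92 to 11.19 with vehicle. Of 20 genes of the axis 2 were higher and 3 lower, with a median of -0.17.

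Among steroid receptor genes, Esr1 and Pgr did not pass the test. Esr1, which encodes estrogen receptor alpha, had 11.89, 12.03 and 12.09 with E2, against 12.19, 12.38 and 12.22 with IGF1 (-0.26 ± 0.19, adjusted p = 0.498). The progesterone receptor gene Pgr had 14.71, 14.47 and 14.50 with E2, against 13.90, 13.71 and 14.21 with IGF1 (0.62 ± 0.33, adjusted p = 0.295). Greb1, an estrogen-responsive cofactor, had 6.92, 6.97 and 7.01 with E2, against 6.22, 6.22 and 6.23 with IGF1 (0.74 ± 0.14). It was also higher with E2 in KO at 24 h, by 0.58 without KO E2 replicate 2 (adjusted p = 0.0153). The WT difference minus that in KO was then 0.16 ± 0.20 and was not called (adjusted p = 0.626). Of 16 receptors and cofactors 3 were higher and 3 lower, with differences of -0.73 to 1.11 (median -0.17). Over all genes 7.59% were called higher and 2.49% lower. The mineralocorticoid receptor Nr3c2 was lower by a difference of -0.73 ± 0.14.

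Enzymes of steroid and retinoid metabolism rose in 9 of 23 members and fell in 1 (median 0.35, or 0.05 with values under the floor set to it). Dhrs9, which oxidises retinol, had 9.65, 8.97 and 9.43 with E2 and lay at the floor with IGF1, at least 11.3-fold higher. The retinoic acid binding protein Crabp1 had 11.81, 12.47 and 12.51 with E2, against 9.59, 8.55 and 9.45 with IGF1 (3.06 ± 0.37), and Crabp2, at the floor with IGF1, was at least 3.50-fold higher. Hsd11b2, which inactivates glucocorticoids, rose by 1.87 ± 0.24. The member that fell was the retinol transporter Stra6 (-1.24).

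Collagens rose in 9 of 25 members and fell in 1 (median 0.08). Type VI led, with Col6a2 at 11.89, 12.05 and 12.40 with E2, against 9.76, 9.17 and 10.09 with IGF1 (2.44 ± 0.24). Col6a1 rose by 1.93 ± 0.23, Col6a3 by 1.82 ± 0.31, Col6a6 by 1.61 ± 0.15 and Col1a1 by 1.35 ± 0.22. The basement membrane chain Col4a6 was lower (-0.54).

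Interferon-responsive genes rose in 9 of 22 members, with none lower and a median of 0.63. Oas1a, a sensor of double-stranded RNA, had 10.90, 10.28 and 10.22 with E2, against 7.97, 8.09 and 7.85 with IGF1 (2.50 ± 0.36). Rtp4 rose by 2.35 ± 0.34. The list mean on the E2 arrays was 8.73, 8.52 and 8.19, against 7.58, 7.70 and 7.41 on the IGF1 arrays and 7.56, 7.79 and 8.00 on the vehicle arrays. The count was 4 without E2 replicate 1 or 2 or IGF1 replicate 3, 5 without IGF1 replicate 1 or 2, and 9 without E2 replicate 3. Of 35 chemokine and receptor genes 4 were higher and 2 lower, with Cxcl17 at 13.33, 13.20 and 12.97 with E2, against 10.94, 11.61 and 10.08 with IGF1 (2.29 ± 0.50), and Ccl28 rising by 1.98 ± 0.34. The chemokine count was 2 with any array other than IGF1 replicate 1 left out.

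Tgfbi, an extracellular matrix protein of connective tissue, had the largest fall among the genes ranked. It had 11.24, 11.23 and 11.27 with E2, against 15.57, 15.74 and 15.71 with IGF1 (-4.43 ± 0.51, adjusted p = 2.03e-06). Vehicle arrays had 13.78, 15.72 and 15.73, the first of them from the replicate that stood apart. IGF1 minus vehicle was 0.60 with that array and -0.05 without it, and E2 minus vehicle -3.83 with it and -4.48 without. The matrix glycoprotein list held only 2 rises and 1 fall among 28 genes (median -0.24).

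Txnip, an inhibitor of thioredoxin and glucose uptake that FoxO factors can activate, had 13.75, 13.98 and 13.86 with E2, against 15.78, 16.67 and 15.70 with IGF1 (-2.18 ± 0.44). Cd83, an immunoglobulin-family surface protein, had 6.35, 5.96 and 6.53 with E2, against 8.64, 8.29 and 8.57 with IGF1 (-2.22 ± 0.43). The Wnt antagonist Sfrp2 had 8.49, 8.65 and 8.40 with E2, against 10.24, 10.37 and 10.27 with IGF1 (-1.78 ± 0.22). For these 3 every IGF1 array lay within 1 log2 unit of a vehicle array. Of 23 FoxO targets 1 was higher and 2 lower (median -0.36), and of 41 Wnt genes 2 were higher and 3 lower (median -0.18).

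In other falls the IGF1 arrays lay above the vehicle arrays, a difference not tested here. The endocytic receptor Lrp2 had 5.92, 5.71 and 5.77 with E2, against 7.72, 7.60 and 7.65 with IGF1 (-1.86 ± 0.43) and 6.26, 6.30 and 5.80 with vehicle. The carboxypeptidase-like protein Cpxm2 had 6.54, 6.60 and 6.98 with E2, against 8.59, 8.48 and 8.63 with IGF1 (-1.86 ± 0.27) and 7.56 to 7.68 with vehicle. Metallothionein 2 (Mt2), which binds zinc and responds to glucocorticoids and metals, had 13.24, 13.58 and 13.33 with E2, against 15.81, 15.36 and 14.41 with IGF1 (-1.81 ± 0.41). For Mt2 the vehicle arrays overlapped the IGF1 arrays.

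The other falls among the 15 were Nr1d1 (-2.03 ± 0.43) and Per3 (-1.71 ± 0.37), which encode clock proteins, Abi3bp (-1.98 ± 0.35), Fmo2 (-1.93 ± 0.54), Abca8a (-1.82 ± 0.41) and Pamr1 (-1.79 ± 0.53). Abca8a lost its call without IGF1 replicate 2 (-1.34, adjusted p = 0.0587). Pamr1 lost it without that array (-1.24, adjusted p = 0.239) and without E2 replicate 2 or 3 (0.0994 and 0.0893). Fmo2 lost it without IGF1 replicate 2 (-1.48, adjusted p = 0.172) or 1 (0.0587) and without E2 replicate 1 or 3 (0.0785 and 0.0769). In these 3 genes IGF1 replicate 2 was the highest of the IGF1 arrays.

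In the remaining lists few members were called, and counts this small moved with single arrays left out. Of 24 immediate early genes 5 were higher and none lower (median 0.18), of which Ier3 rose by 1.84 ± 0.31, and the count was 2 without IGF1 replicate 2 and 3 without any one E2 array. MAPK feedback gave 2 of 19 higher and 1 lower, with the ErbB inhibitor Lrig1 at 10.26, 10.27 and 10.04 with E2, against 7.86, 7.92 and 7.89 with IGF1 (2.30 ± 0.28). EGF-family genes gave 2 of 14 higher, among them the receptor Erbb3 (1.12 ± 0.24). Metalloproteinases and their inhibitors gave 1 of 21 lower, hedgehog and TGF-beta genes 1 of 27 higher and 2 lower, and Hox and patterning factors 2 of 21 lower. Complement gave 2 of 26 higher, prostaglandin and angiogenic genes 1 higher and 1 lower each (of 19 and of 24), and none of 15 antigen presentation genes was called.

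The lists were also set beside vehicle, as values only, since E2 and IGF1 are measured against the same vehicle arrays. Without vehicle replicate 1, the median of the epithelial markers was 2.32 for E2 minus vehicle and 0.66 for IGF1 minus vehicle. For the proteasome list these medians were 1.57 and 0.61, for the respiratory chain 1.5 and 0.81, and for ribosome biogenesis 1.22 and 0.19. In these lists the IGF1 median lay between vehicle and E2. Vehicle mice had 1 injection of saline, and IGF1 mice 3 injections in PBS. IGF1 minus vehicle can therefore not be told apart from injection number, time since the last one or solvent. This holds wherever IGF1 is set beside vehicle.

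In KO uteri the same pair of hormones was compared on 6 other arrays. Esr1, the targeted gene, averaged 10.07 with E2 and 10.12 with IGF1 in KO, against 11.89 to 12.09 with E2 and 12.19 to 12.38 with IGF1 in WT. In KO 3060 genes were called higher (10.2%) and 3408 lower (11.3%), and the share of calls that were higher was 47.3%, or 12.4% with arrays centred. These counts were 1268 and 2037 without KO E2 replicate 2, 1527 and 2399 without KO IGF1 replicate 3, and 1724 and 2481 without KO IGF1 replicate 2. None of the 15 largest rises in WT was called higher in KO, where 10.2% of all genes were. Sprr2f differed by -1.41 ± 1.55 in KO and Clca1 by 0.04 ± 0.68. Ltf differed by 2.51 in KO without KO E2 replicate 2 and did not pass the test (adjusted p = 0.293).

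The test of the genotype difference (the E2 minus IGF1 difference in WT minus that in KO) called 4312 genes higher (14.3%) and 3007 lower (9.98%), a share of higher calls of 58.9%, or 89.2% with arrays centred. The genes with the largest differences were chosen on the WT values that this test also uses, so their genotype differences are given as values only. For Sprr2f it was 11.11 ± 2.19, for Clca1 5.24 ± 0.96 and for Tgfbi -5.19 ± 0.72. For Ltf it was 2.16 ± 1.99 without KO E2 replicate 2, where it did not pass the test (adjusted p = 0.487). Lrp2 was lower with E2 in both genotypes, by -1.86 in WT and -2.88 ± 0.43 in KO, and its genotype difference was not called (1.02 ± 0.60, adjusted p = 0.22). The WT values of Lrp2 with E2 lay near the floor, so these sizes are not exact. Mt2 differed by -1.43 ± 0.41 in KO (adjusted p = 0.0173), a call that was lost without KO E2 replicate 2 (-1.09, adjusted p = 0.119).

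Genes of growth metabolism were among those called lower with E2 than with IGF1 in KO, as were 11.3% of all genes. So were 7 of 11 stromal markers (median -1.54), 13 of 25 collagens (median -0.44) and 4 of 12 smooth muscle markers (median -0.70). In the stromal and collagen lists 1 member each was called higher. All 24 proteasome genes were called lower in KO (median -0.99) and 24 were called in the genotype difference (median 1.91). Of 30 respiratory chain genes 21 were lower in KO (median -1.03), and 25 were called higher in the genotype difference. The mean proteasome level was 11.03, 10.53 and 10.90 with E2 and 11.74, 12.08 and 11.98 with IGF1 in KO. KO E2 replicate 2 was the lowest of its group for this list, and without it 17 proteasome and 19 respiratory chain genes were lower. The direction of both medians was the same with arrays centred and after quantile normalization. After quantile normalization 16 proteasome and 15 respiratory chain genes were lower, and with arrays centred 24 and 28.

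The mitosis count in KO depended on single arrays. Of 28 genes 15 were lower with E2 (median -0.62), but the list mean was 6.29, 6.50 and 6.25 with E2 and 6.69, 7.86 and 6.72 with IGF1. Without KO IGF1 replicate 2, 1 gene was lower and 1 higher, with a median of -0.38, and without KO E2 replicate 2 the count was 9 lower. KO IGF1 replicate 2 also differed from the other KO IGF1 arrays in its smooth muscle markers (12.87, against 11.69 and 11.82) and neutrophil markers (8.36, against 6.47 and 6.64), whose part in the result was not tested. Of 17 cholesterol genes 9 were lower (median -0.53), 2 without KO IGF1 replicate 3 and 5 without KO E2 replicate 2.

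The difference at 24 h was set against that at 2 h after 1 injection of either hormone. The test of the time difference (24 h minus 2 h) called 2067 genes higher (6.86%) and 893 lower (2.96%), a share of higher calls of 69.8%, or 80.3% with arrays centred. Sprr2f differed by 0.84 between E2 and IGF1 at 2 h and Car2 by -0.96. The mitosis list had a median of 0.09 at 2 h, and 24 of its 28 members were called higher in the time difference and 1 lower. Cholesterol genes lay lower with E2 at 2 h (median -0.82), and all 17 were called higher in the time difference (median 2.22).

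Klk1 was above the floor on all 3 E2 arrays at 2 h and on 2 of 3 IGF1 arrays, and differed by 8.74. Its IGF1 arrays at 24 h were all at the floor, so no difference between the times is given. Greb1 differed by 4.80 at 2 h and 0.74 at 24 h. Placenta growth factor (Pgf) differed by 5.81 at 2 h and 0.28 at 24 h, where it was above the floor on 1 E2 array only and was not called. Igf1 differed by 2.71 at 2 h and 1.88 at 24 h, and its time difference was not called (-0.83 ± 0.40, adjusted p = 0.235).

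**Figure D5:**
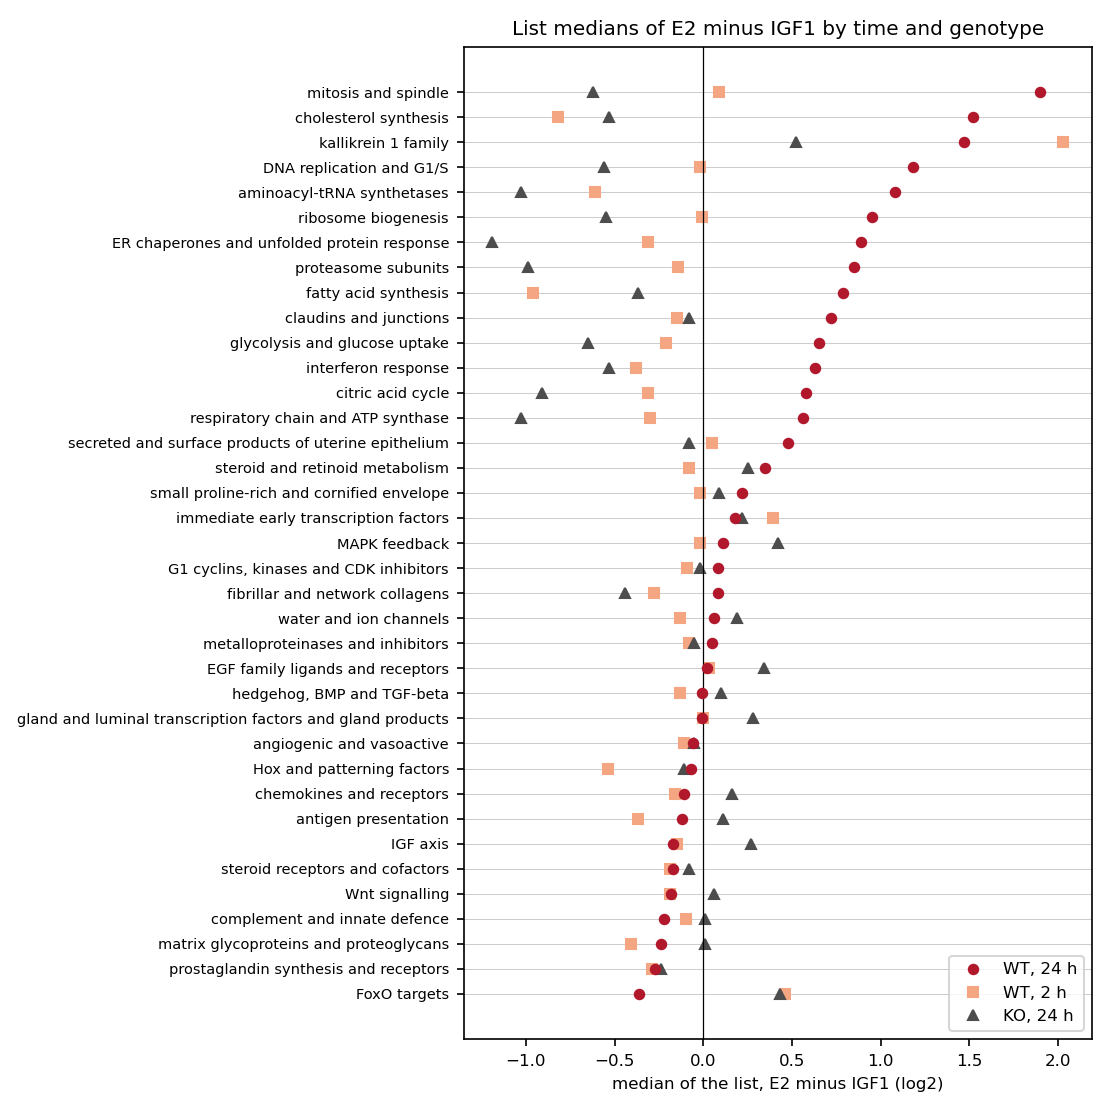
Median of E2 minus IGF1 (log2) in each of 37 gene lists, in WT at 24 h (red circles), WT at 2 h (orange squares) and KO at 24 h (grey triangles), ordered by WT at 24 h. Mitosis and cholesterol synthesis are at 1.90 and 1.52 in WT at 24 h and below 0 in KO, and the kallikrein list, most of whose members are at the floor with IGF1, is above 0 in all 3. Of 11 kallikrein genes 4 were called higher in KO as deposited, and 0 with arrays centred (median 0.30).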

How the data were processed

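The deposited series table holds 1 log2 value per probe set and array; the authors' scale was read from the values, and how they corrected background and normalized the arrays is not stated by the labels. Of 72688 probe sets, 30604 had 1 gene symbol in GEO's platform annotation (827 updated through RefSeq), 2146 had several and 39938 were not listed, and these were not analysed here. The probe set of highest mean stood for each of 30142 genes. limma 3.58.1 in R 4.3.3 (lmFit, eBayes) was fitted to group means over all 30 arrays, and p-values were adjusted over all genes by Benjamini-Hochberg. A probe set at or under the floor on all arrays of a group was given an "at least" fold against the floor where the gene is described. On simulated data the fit recovered 64% of 100 changes of 1 log2 unit and 95% of 100 of 2 log2 units, with 4 false calls. The simulated noise was independent, normal and equal in spread on all arrays, as the fit assumes. The real arrays were unequal, with estimated weights of 0.166 to 3.66, so these rates need not hold for them. Values after ± are standard errors with n = 3 arrays per group. Named genes were the 15 largest rises and falls among genes called, at least 2-fold and without overlap, up to 5 called members per list, 5 per direction of the genotype and time differences, and 8 fixed genes; members that fell outside this rule (such as the markers and the uncalled list members) were named after their values were seen. The groups, lists and tests were chosen with earlier results of these data known.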

Additional observations from a re-analysis of the deposited data

Results flagged for a closer look

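The E2 minus IGF1 difference departed between WT and KO, by the test of that difference, for 7319 genes. The largest genotype differences (WT minus KO, log2) were 11.11 for Sprr2f, 9.70 for Sprr2b, 7.31 for Sprr1a, 5.88 for Klk1 and 5.60 for Ube2c, and on the other side -6.42 for Hpgds, -5.53 for Inmt, -5.19 for Tgfbi, -4.67 for Speer4e and -4.55 for Stc1. It departed between 24 h and 2 h in WT for 2960 genes. The largest time differences (24 h minus 2 h, log2) were 8.86 for Sprr2f, 8.86 for Sprr2b, 7.56 for Sprr1a, 5.84 for Adgrg7 and 5.51 for Car2, and on the other side -5.82 for Pdk4, -5.52 for Pgf, -5.06 for Gadd45g, -4.93 for Dennd2a and -4.91 for Csrnp3. The values of Klk1, Speer4e and Pgf include groups that were at the array floor, so their sizes are not exact. Those of Sprr1a include a value under the floor on WT IGF1 replicate 3 at 24 h and are not exact either. The largest differences were picked partly on the WT values at 24 h that these tests use. The test for a single far sample was not applied to groups of 3.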

How the results depend on the processing

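Of 162 named genes called between E2 and IGF1 in WT at 24 h, 110 kept their call and direction under every alternative and with every array left out, 126 under the alternatives other than left-out arrays, and 0 were reversed. The uncalled Csrnp3 turned to 0.06 with arrays centred and, with arrays left out, ranged from -0.16 to 0.10 (without WT IGF1 replicate 3). The 3037 calls in WT became 5495 with array weights and 1583 to 3821 with arrays left out (1583 without IGF1 replicate 2, 1880 and 1946 without E2 replicates 2 and 3). The 144 genes lower by at least 2-fold became 84 with arrays centred and 75 to 173 with arrays left out. The 6468 calls in KO became 3288 when only the compared groups were fitted and 3305 to 6423 with 1 array left out (3305 without KO E2 replicate 2, 4205 and 3926 without KO IGF1 replicates 2 and 3). The 2960 time differences became 5267 with only the compared groups and 5930 with array weights. The share of higher calls was 91.1% with arrays centred and 65.1% after quantile normalization in WT, 12.4% centred in KO, 89.2% centred for the genotype difference and 80.3% centred for the time difference. The causes were not tested. Same-numbered arrays did not deviate together (r = -0.046, -0.004 and -0.047), and with the replicate number as a block 3017 genes were called in WT.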

Other observations

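Genes of the circadian clock, grouped after their values were seen and therefore given with no test, lay mostly lower with E2. Of 14 genes 11 had a negative and 3 a positive E2 minus IGF1 difference, with a median of -1.20 and a range of -2.03 to 0.80. The repressor Nr1d1 was at -2.03 and the activator Arntl at 0.80. The time of day of collection is not given in the labels. Of 32 histone genes, grouped in the same way, 29 had a positive difference and 3 a negative one, with a median of 0.48. Several of them were under the floor on every compared array, among them H1f6 (0.45), H4c2 (0.51) and H1f8 (-0.02). The count of signs therefore includes genes not measured above background.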
